A study of Mus musculus with 8 samples.

Results

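The genes described here encode the mitochondrial respiratory chain, the mitochondrial ribosome and the protein import machinery of the mitochondrial membranes. They were taken by symbol from the protein-coding rows of the deposited gene table: complex I (Nduf), succinate dehydrogenase (Sdha to Sdhd), complex III (Uqcr), cytochrome c oxidase (Cox followed by a digit), ATP synthase (Atp5), mitochondrial ribosomal proteins (Mrpl and Mrps), inner and outer membrane translocases (Timm and Tomm), and genes of the mitochondrial genome (mt-). The rule found 50 genes among 1931 rows, or 2.59% of the table, of which 48 are encoded in the nucleus and 2 in mitochondrial DNA. In the GENCODE M21 mouse annotation 223 protein-coding genes fit the same symbols, so the table gave values for 22.4% of them. The table holds only genes with a deposited unadjusted p of at most 0.05 between the groups, so every one of the 50 had passed such a test on the 8 libraries before it could be described, and genes that did not pass were not analysed here.

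The study sequenced kidney RNA of MRL-lpr mice, which belong to a strain that develops a lupus-like disease with nephritis and whose Fas gene carries the lpr mutation. All mice were 12 weeks old. For 4 mice the treatment label is control, and the other 4 received propionate, a short-chain fatty acid that gut bacteria produce, at 200 mM in drinking water for 6 weeks. The sources used here do not state the sex, litter or housing of the mice, and every mouse carried the lpr background, so no comparison with a healthy strain was possible.

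The respiratory chain of the inner mitochondrial membrane passes electrons from NADH and succinate to oxygen and pumps protons, and ATP synthase uses the proton gradient to make ATP. Most subunits of these complexes are encoded in the nucleus, translated in the cytosol and imported through the outer and inner membrane translocases, whereas a small set of core subunits is encoded in mitochondrial DNA and translated by the mitochondrial ribosome. The tubule epithelium of the kidney, above all the proximal tubule, is rich in mitochondria because the reabsorption of solutes consumes much ATP.

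By class, the table gave values for 10 of 38 annotated complex I subunits, 1 of 8 complex I assembly factors, 4 of 8 complex III genes, 7 of 18 genes of cytochrome c oxidase subunits, 1 of 9 assembly factors of that complex, 4 of 18 ATP synthase genes, 10 of 49 genes of the large and 6 of 29 of the small mitochondrial ribosomal subunit, 5 of 15 inner membrane translocase genes and 2 of 13 mitochondrially encoded genes. No gene of succinate dehydrogenase and none of the outer membrane translocase was analysed here.

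Promoter sequence is shown for 3 nuclear genes because it carries matches to motifs known from genes of mitochondrial proteins, and coding sequence for 2 genes because annotated genes that share their bases bear on how their reads can be read. Promoter windows are those of RefSeq on GRCm38.p6, from 250 bases before to 50 bases after the gene's start, 5′ to 3′ on the gene's strand, and 41 of the 48 nuclear genes had one. Capitals mark a match on either strand to CCGGAAG, a core that GABP and other ETS factors bind, to the NRF1 motif (GCGCA followed directly by TGCGC), or to AAGATGGCG, the YY1 motif. Uqcr11 lies on the minus strand at chr10:80406772-80407071, Cox6a1 on the minus strand at chr5:115348909-115349208 and Mrps11 on the plus strand at chr7:78782881-78783180.
Uqcr11: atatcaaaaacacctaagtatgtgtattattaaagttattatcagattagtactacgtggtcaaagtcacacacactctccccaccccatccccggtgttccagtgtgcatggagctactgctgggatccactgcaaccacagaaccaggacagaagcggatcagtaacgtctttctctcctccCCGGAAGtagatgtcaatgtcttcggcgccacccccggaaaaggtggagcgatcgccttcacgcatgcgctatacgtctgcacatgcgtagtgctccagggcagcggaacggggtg
Cox6a1: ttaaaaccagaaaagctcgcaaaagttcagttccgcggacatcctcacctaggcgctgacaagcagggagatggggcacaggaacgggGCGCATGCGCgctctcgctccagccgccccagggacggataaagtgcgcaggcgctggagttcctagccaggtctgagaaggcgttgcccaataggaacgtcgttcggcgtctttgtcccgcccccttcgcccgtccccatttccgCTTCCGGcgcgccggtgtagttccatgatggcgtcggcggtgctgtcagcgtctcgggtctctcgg
Mrps11: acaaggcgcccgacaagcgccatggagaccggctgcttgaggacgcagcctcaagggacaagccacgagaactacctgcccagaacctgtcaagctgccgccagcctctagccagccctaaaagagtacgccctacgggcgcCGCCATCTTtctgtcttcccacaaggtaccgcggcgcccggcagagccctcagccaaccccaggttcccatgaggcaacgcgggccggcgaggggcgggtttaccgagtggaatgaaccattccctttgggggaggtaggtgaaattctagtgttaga

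Another motif searched on both strands was AAGGTCA, bound by the oestrogen-related receptor ERR-alpha. At least 1 match to any of the 4 motifs was present in 19 of the 41 members' windows (46.3%) and in 18.2% of 17492 windows of protein-coding genes, and no matches overlapped each other in the members. The GABP core was found in 10 of the 41 windows (24.4%), in 15.9% of the windows of the other protein-coding rows of the table and in 11.9% of all windows. Matches to the YY1 motif occurred in 5 windows (12.2%), against 2.97% and 1.94%. The NRF1 letters were present in 3 windows (7.32%, against 2.16% and 1.32%) and the ERR-alpha letters in 3 (7.32%, against 3.05% and 4.08%). These shares describe letters in a window, with no test, and say nothing of binding in these kidneys.

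Coding sequence from GRCm38 is given for Cox17, which encodes the copper chaperone that delivers copper for the assembly of cytochrome c oxidase, and for mt-Nd4l, a small core subunit of complex I. In Cox17 (chr16:38347101-38349325, plus strand, spliced) the capitals mark bases that GENCODE M21 also assigns to Gm21987, another protein-coding gene on the same strand, and they cover the whole of the 192 bases including the stop codon. In mt-Nd4l (chrM:9877-10173, plus strand) the capitals mark the last 7 of 297 bases, which the annotation also assigns to mt-Nd4. In all, exons of 25 members overlap another annotated gene, 20 of them on the opposite and 7 on the same strand.
Cox17: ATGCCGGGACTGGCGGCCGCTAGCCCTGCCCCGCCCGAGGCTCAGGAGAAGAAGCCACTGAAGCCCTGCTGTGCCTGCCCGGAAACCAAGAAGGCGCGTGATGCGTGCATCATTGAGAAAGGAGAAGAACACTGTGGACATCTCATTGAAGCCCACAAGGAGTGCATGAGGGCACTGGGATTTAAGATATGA
mt-Nd4l: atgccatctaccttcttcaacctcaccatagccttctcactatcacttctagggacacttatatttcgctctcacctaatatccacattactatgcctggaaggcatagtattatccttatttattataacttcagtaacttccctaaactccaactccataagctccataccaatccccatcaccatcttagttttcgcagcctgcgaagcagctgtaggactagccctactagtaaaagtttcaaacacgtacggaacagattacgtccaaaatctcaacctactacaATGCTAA

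Between 20005328 and 26711127 reads per library were assigned to genes, and 13.4% to 15.1% of them fell in the rows of the table. Values by library are given as scaled counts, the read counts divided by the authors' size factor of each library. Scaled counts do not take gene length into account, so levels of different genes are compared as FPKM, fragments per kilobase of gene length scaled to the assigned reads of the library. Among the tubule genes of the table, those of the proximal tubule included Slc34a1, the phosphate transporter, and Lrp2, the endocytic receptor megalin, at 70091 ± 5575 and 55276 ± 2605 scaled counts in controls (SD, n = 4). In bulk tissue, fewer cells of a type and less RNA per cell cannot be told apart.

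The libraries did not contribute evenly. Propionate 4 held the highest value in 46 of the 47 nuclear genes that were higher with propionate (97.9%), the exception being Ndufb2, and control 1 held the lowest in 37 of the 47 (78.7%). Among the other 908 tested rows that were higher with propionate the same libraries were at the extremes in 67.6% and 36.1%. Set against the control mean on a log2 scale, the median nuclear gene was at -0.13, 0.07, -0.0024 and 0.06 in controls 1 to 4 and at 0.05, 0.15, 0.22 and 0.46 in propionate 1 to 4. Propionate 1 lay inside the control range for 36 of the 47 genes, so the group difference rested mainly on propionate 2 to 4. How many libraries stood above every control differed by gene: 2 propionate libraries for 10 genes, 3 for 32 and all 4 for 5. All 4 stood above every control in 24.1% of all rows and in 49.7% of the 908 other rows that were higher with propionate.

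**Figure D1:**
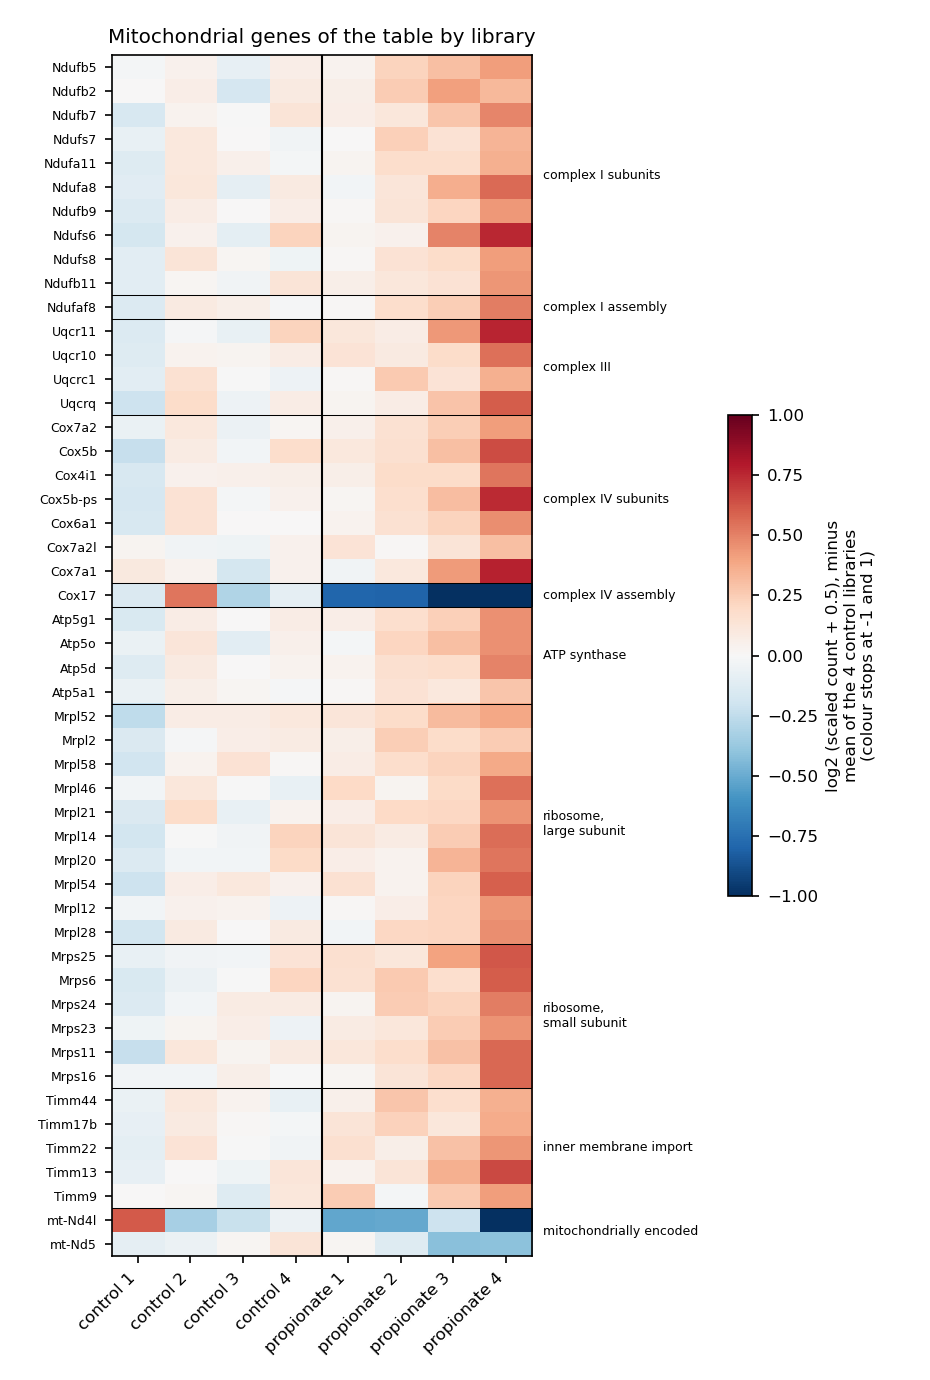
Log2 scaled count of each of the 50 genes (rows, grouped by class) in each library (columns), minus the mean of the 4 controls; red is higher and blue lower, and the colour stops at -1 and 1. Propionate 4 has the strongest red in 46 of the 47 higher nuclear genes, while Cox17, mt-Nd4l and mt-Nd5 run the other way.

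Of the 48 nuclear genes, 47 had a higher mean with propionate and only Cox17 a lower one, and both mitochondrially encoded genes were lower. With a trend on gene length and GC content removed, 42 rather than 47 members were higher: Ndufs7, Ndufa11, Cox6a1, Mrpl2, Mrpl54 and Mrpl28 were then lower and mt-Nd5 higher. Over all 1793 rows that could be tested, 955 (53.3%) were higher. Length went with direction across the table: of 444 tested protein-coding rows outside the members with a gene length of at most 2795 bases, the length that 3 in 4 members do not exceed, 363 (81.8%) were higher. The members' median gene length was 1541.5 bases and their median GC content 53.1%, against 3783.0 bases and 50.6% in the table. The trend was fitted in each library on the selected rows themselves, members included, and its removal also rescaled the libraries. With it removed, 64.9% of all rows tested were higher. The part of length and GC content in the direction of the members was not tested apart from this fit.

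The 47 higher genes had log2 fold changes from 0.14 to 0.37, or 1.10 to 1.29 times the control level, with standard errors of 0.07 to 0.16. After removal of the length and GC trend the same genes ran from -0.05 for Cox6a1 to 0.58 for Ndufb2 and 0.64 for Mrps25, and without propionate 4 from 0.09 for Atp5a1 to 0.25 for Ndufb2. Their median, 0.25, was close to that of the other 908 rows that were higher with propionate, 0.24, and short protein-coding rows outside the members had 0.23 over both directions. Over all 48 nuclear genes the median was 0.24, and over all rows tested, of which nearly as many were lower as higher, it was 0.16. Without propionate 4 these medians were 0.15 and 0.11, and with the trend removed 0.14 and 0.08. In the classes whose genes were higher, class medians ran from 0.22 in complex I subunits to 0.28 in the small ribosomal subunit, and with the trend removed from 0.05 in complex I assembly and 0.08 in the large ribosomal subunit to 0.22 in ATP synthase. Differences between the classes were not tested.

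Under the strictest rule, edgeR's quasi-likelihood test with Benjamini-Hochberg adjustment over the 16064 genes that entered the authors' adjustment, none of the 50 members passed 0.05, and none of the 1793 rows did (0%). At an unadjusted p under 0.05 the same test called 41 members and 94.3% of the rows, a share that follows from how the table was selected. The DESeq2 test adjusted over 16064 genes called 1 member, Cox17, and 9.26% of the rows. By the adjusted p of the authors' deposited table, Cox17 was again the only member at or below 0.05, called as lower, against 8.13% of all rows, 2.8% called higher and 5.33% called lower. For the other members the authors' deposited table gives adjusted p-values from 0.176 to 0.445. A looser rule, the edgeR adjustment over the rows tested alone, called 36 members, 34 higher and 2 lower, or 72% of them. It called 90.2% of all rows, 48.2% as higher and 42% as lower, as a table selected in advance must by construction. The count of 36, and each p adjusted over the rows tested, is therefore no result about the members. Of the rows so called 53.4% were higher, against 39.8% with TMM scaling and 72% with the length and GC trend removed. Under this looser rule the count hung on most single libraries. It was 0 without control 2, control 3, propionate 3 or propionate 4, 1 without control 1 or control 4, 25 without propionate 2 and 44 without propionate 1. All rows so called numbered 1617 with every library. Without control 2, control 3, propionate 3 or propionate 4 they numbered 180, 30, 127 and 159. Without control 1, control 4, propionate 2 or propionate 1 they numbered 546, 156, 1156 and 1389. The words rose and fell are kept for genes that passed the authors' adjusted p, which among the members leaves Cox17, and all other differences are given as higher or lower values.

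**Figure D2:**
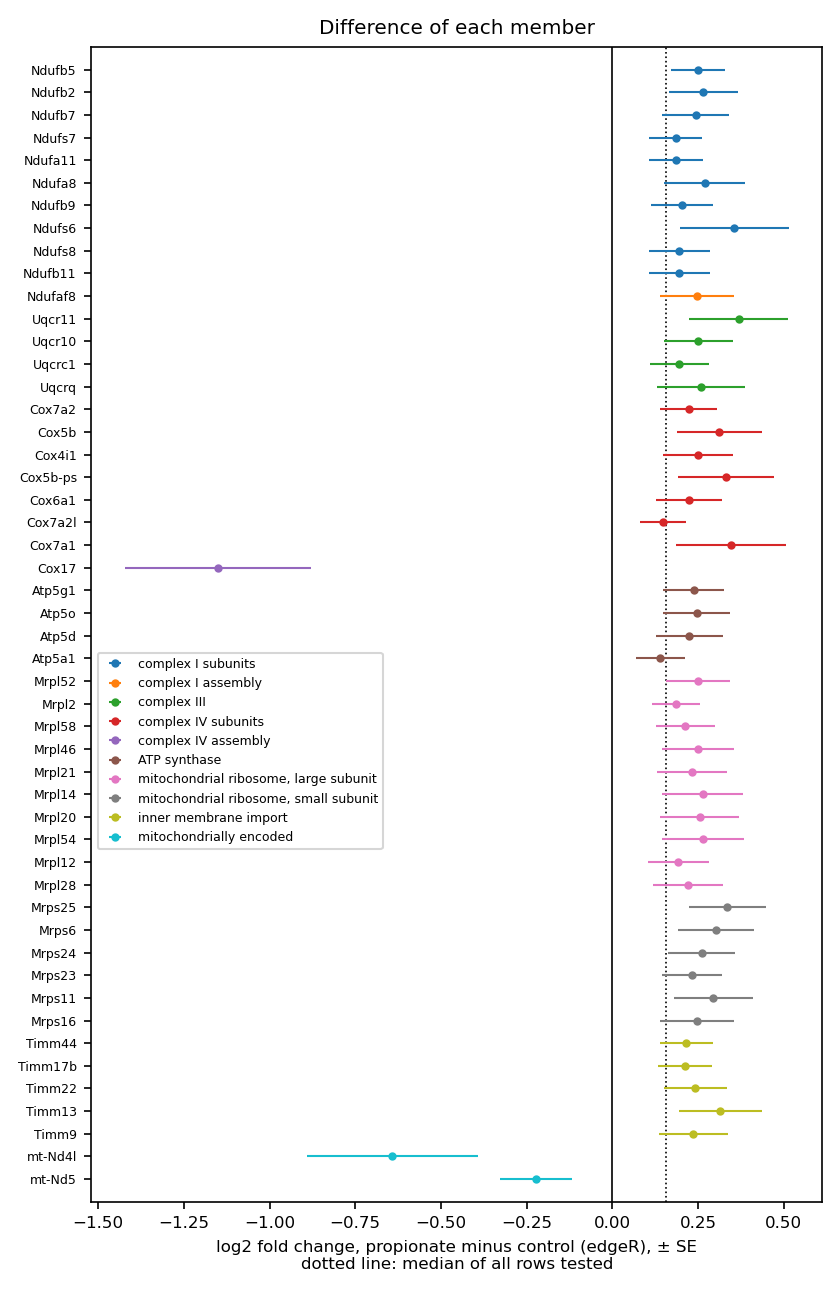
Log2 fold change of each member, propionate minus control, from the edgeR fit, with its standard error as a bar; colours are classes and the dotted line is the median of all rows tested, 0.16. The 47 higher nuclear genes lie between 0.14 and 0.37, and Cox17, mt-Nd4l and mt-Nd5 lie below 0; with the length and GC trend removed Ndufs7, Ndufa11, Cox6a1, Mrpl2, Mrpl54, Mrpl28 and mt-Nd5 change sign.

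Complex I, NADH dehydrogenase, takes electrons from NADH. All 10 measured subunit genes were higher with propionate (all but Ndufs7 and Ndufa11 once the length and GC trend was taken out). Of the 10, 6 passed the looser rule, beside 90.2% of all rows. No subunit gene had all propionate libraries above all controls, as 24.1% of all rows and 49.7% of the other higher rows did. Scaled counts of Ndufb5 were 2580.2, 2693, 2468 and 2737 in controls 1 to 4 and 2687, 3062, 3218 and 3491 in propionate 1 to 4. Ndufb5 encodes an accessory subunit of the membrane arm, and its propionate 2 to 4 lay above every control while propionate 1 did not. For Ndufb5 edgeR's quasi-likelihood test gave a log2 difference of 0.25 ± 0.08 (SE). Its p was 0.324 adjusted over all genes that entered the authors' adjustment, below called the full gene set. Ndufb2 had scaled counts of 279, 291, 248 and 295 in controls 1 to 4 and 289, 332, 369 and 347 in propionate 1 to 4. In Ndufb2, another accessory subunit, control 3 was the lowest and propionate 3 the highest library, and propionate 1 lay among the controls. With edgeR, Ndufb2 differed by 0.27 ± 0.10 (SE) on the log2 scale, adjusted p 0.378 over the full gene set. Another annotated gene on the same strand, Gm42420, shares 46% of the Ndufb2 coding bases, and at 2.02 ± 0.174 FPKM in controls (SD, n = 4) Ndufb2 was the lowest of the complex I subunits.

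Ndufb11 had scaled counts of 2951, 3216, 3092 and 3469.7 in controls 1 to 4 and 3316, 3435, 3511 and 4307 in propionate 1 to 4. Ndufb11, an X-linked accessory subunit, had the highest level of the complex I subunits in the table. It was at 143 ± 10.8 FPKM in controls and 164 ± 20 with propionate (SD, n = 4). Propionate 1 and 2 overlapped the controls. Ndufb11 had a log2 fold change of 0.20 ± 0.09 (SE), adjusted p 0.481 over the full gene set by edgeR. The other subunits, Ndufb7, Ndufs7, Ndufa11, Ndufa8, Ndufb9, Ndufs6 and Ndufs8, had log2 fold changes from 0.18 for Ndufs7 to 0.36 for Ndufs6. Ndufb9 shares 37.4% of its coding bases on the same strand with Gm49356. Ndufs7 and Ndufs8, at 0.18 and 0.20, carry iron-sulphur clusters of the electron path. Scaled counts of Ndufaf8 were 434, 509, 496 and 473 in controls 1 to 4 and 481, 538, 566 and 682 in propionate 1 to 4. Ndufaf8, an assembly factor of complex I, was above all controls in propionate 2 to 4. For Ndufaf8 edgeR's quasi-likelihood test gave a log2 difference of 0.25 ± 0.11 (SE) and a p of 0.441 adjusted over the full gene set.

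Complex III, the cytochrome bc1 complex, passes electrons from ubiquinol to cytochrome c. The 4 genes in the table were all higher, with a median log2 fold change of 0.25. The looser rule passed 3 of them, beside 90.2% of all rows. Scaled counts of Uqcr11 were 2701, 2953, 2817 and 3475 in controls 1 to 4 and 3224, 3129, 4023 and 5044 in propionate 1 to 4. Uqcr11, a small accessory subunit with the GABP core in its printed promoter window, had propionate 1 and 2 inside the control range. With edgeR, Uqcr11 differed by 0.37 ± 0.14 (SE) on the log2 scale, adjusted p 0.384 over the full gene set. Its log2 fold change was 0.21 without propionate 4 and 0.09 with the length and GC trend removed. Uqcr10 had scaled counts of 4591, 5141, 5132 and 5282 in controls 1 to 4 and 5536, 5349, 5712 and 7373 in propionate 1 to 4. Uqcr10, another small subunit, was higher in all 4 propionate libraries than in any control, as in 4 other members (Mrpl52, Mrps23, Mrps11 and Timm17b), together 10% of the 50 beside 24.1% of all rows and 49.7% of the other rows that were higher. Uqcr10 had a log2 fold change of 0.25 ± 0.10 (SE), adjusted p 0.385 over the full gene set by edgeR. Uqcr10 also had the highest level of complex III, 353 ± 22.6 FPKM in controls and 419 ± 63.8 with propionate (SD, n = 4). Uqcrc1, a core protein, and Uqcrq had log2 fold changes of 0.19 and 0.26, and in each 2 propionate libraries exceeded every control.

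Cytochrome c oxidase, complex IV, reduces oxygen to water. Its 7 subunit genes in the table were all higher (all but Cox6a1 with the trend removed), with a median log2 fold change of 0.25. The looser rule passed 5 of them, beside 90.2% of all rows. Cox7a2 had scaled counts of 4387, 4959.9, 4416 and 4657 in controls 1 to 4 and 4757, 5114, 5469 and 6149 in propionate 1 to 4. In Cox7a2, which encodes a small subunit in its broadly expressed form, propionate 2 to 4 exceeded all controls. For Cox7a2 edgeR's quasi-likelihood test gave a log2 difference of 0.22 ± 0.08 (SE) and a p of 0.369 adjusted over the full gene set. Scaled counts of Cox5b were 3369, 4184, 3877 and 4465 in controls 1 to 4 and 4263, 4405, 4865 and 6198 in propionate 1 to 4. Cox5b, a subunit on the matrix side, overlapped between the groups in propionate 1 and 2. With edgeR, Cox5b differed by 0.31 ± 0.12 (SE) on the log2 scale, adjusted p 0.385 over the full gene set. Cox5b-ps, a copy of Cox5b in a 390-base row that the table lists as protein coding, had a log2 fold change of 0.33 beside 0.31 for Cox5b, and how the counting divided reads between them is uncertain.

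Scaled counts of Cox6a1 were 9741, 11994, 10909.9 and 10916 in controls 1 to 4 and 11144, 12072, 12688 and 14984 in propionate 1 to 4. Cox6a1 had the highest level of all nuclear members, 635 ± 57.2 FPKM in controls and 740.2 ± 94.3 with propionate (SD, n = 4), and control 2 reached nearly to propionate 2. Cox6a1 had a log2 fold change of 0.22 ± 0.10 (SE), adjusted p 0.433 over the full gene set by edgeR. The fold change became -0.05 once the length and GC trend was taken out. Cox4i1, Cox7a2l, which takes part in supercomplexes of the respiratory chain, and Cox7a1, the form best known from heart and muscle, had log2 fold changes of 0.25, 0.15 and 0.35. In each of these 3 genes propionate 2 to 4 or propionate 1, 3 and 4 exceeded all controls.

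Cox17 ran against the subunits of the complex whose copper it delivers. Cox17 had scaled counts of 57.5, 92.2, 51.4 and 59.5 in controls 1 to 4 and 36.3, 36.2, 23.0 and 21.8 in propionate 1 to 4. All 4 propionate libraries lay below the lowest control, and control 2 was well above the other controls. This was the only member whose groups were apart with propionate lower, against 23.5% of all rows. For Cox17 edgeR's quasi-likelihood test gave a log2 difference of -1.15 ± 0.27 (SE) and a p of 0.026 adjusted over the rows tested. The authors' deposited table gives it an adjusted p of 0.031, and on that rule Cox17 fell. By edgeR's quasi-likelihood test adjusted over 16064 genes its p was 0.233, and it ranged from 0.202 to 0.528 when each library was left out in turn, so that test did not call it. Control 2 weighed on its size, with a log2 fold change of -0.93 without that library. The count behind it was low, 22 to 99 reads per library.

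The level of Cox17 was 0.462 ± 0.134 FPKM in controls and 0.208 ± 0.0578 with propionate (SD, n = 4), the lowest of all members, while the next lowest nuclear gene, Ndufb2, was at 2.02 ± 0.174. The table divides its reads by a gene length of 5773 bases, equal to the whole genomic span of the gene, whereas its coding sequence has 192 bases. Every coding base of Cox17 is shared on the same strand with Gm21987, as the capitals show. The sources used here do not say how the authors' counting treated reads from these shared bases, and whether the reads left to Cox17 represent its mRNA was not tested.

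**Figure D3:**
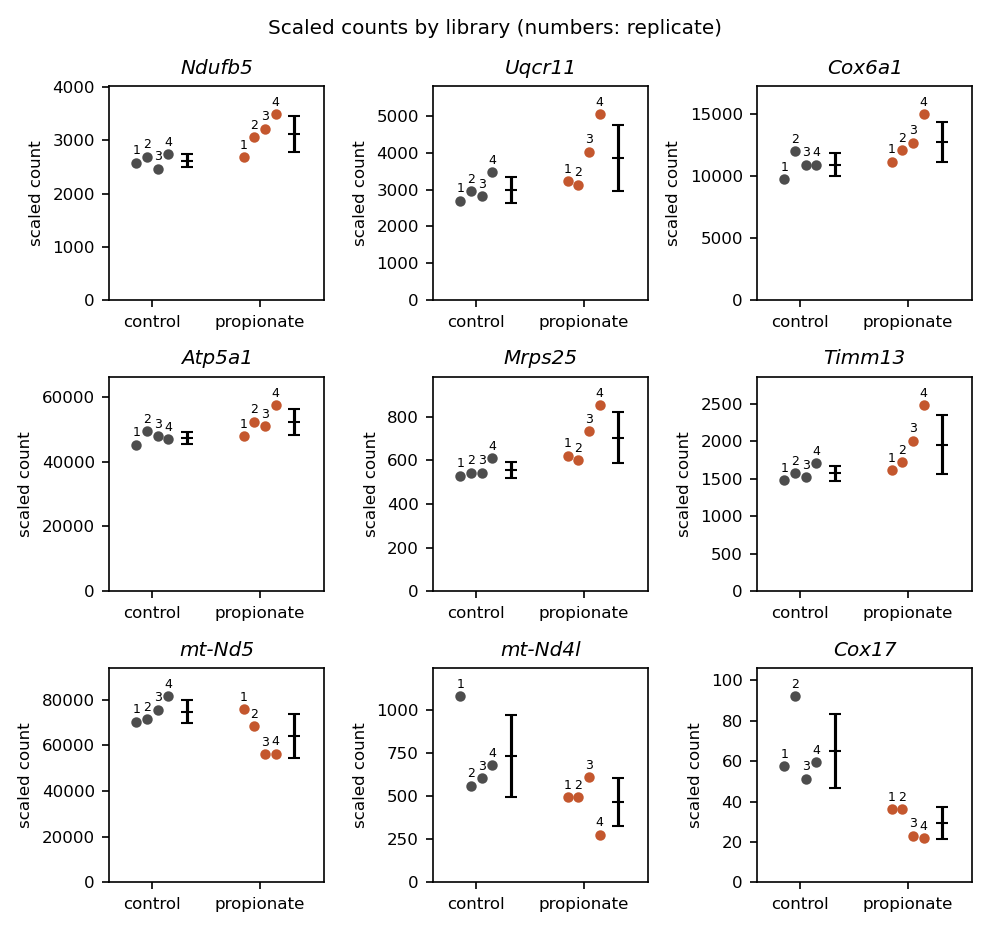
Scaled counts of 9 members in each library, with replicate numbers beside the points and the group mean ± SD (n = 4) as black bars; every axis starts at 0. Propionate 4 is the highest library for the 6 nuclear genes at the top, the groups of Cox17 do not overlap, and those of mt-Nd5 and mt-Nd4l do.

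ATP synthase makes ATP from the proton gradient. All 4 genes in the table were higher, and 3 passed the looser rule, beside 90.2% of all rows. Scaled counts of Atp5g1 were 4393, 5128, 4885 and 5130.5 in controls 1 to 4 and 5096, 5486, 5753 and 6686 in propionate 1 to 4. Atp5g1 encodes a form of subunit c, which builds the rotating ring, and propionate 1 lay among the controls. With edgeR, Atp5g1 differed by 0.24 ± 0.09 (SE) on the log2 scale, adjusted p 0.371 over the full gene set. Atp5o had scaled counts of 3372, 3834, 3284 and 3651 in controls 1 to 4 and 3484, 4089, 4351 and 4842 in propionate 1 to 4. Atp5o, the oligomycin sensitivity protein of the peripheral stalk, had control 2 above propionate 1. Atp5o had a log2 fold change of 0.25 ± 0.10 (SE), adjusted p 0.385 over the full gene set by edgeR. The annotation lists another gene named Atp5o that shares 38% of its coding bases. Scaled counts of Atp5a1 were 45185, 49321, 47801 and 46824 in controls 1 to 4 and 47760.4, 52257, 50961 and 57422 in propionate 1 to 4. Atp5a1, the alpha subunit of the catalytic head, had the highest level of the class, 617 ± 25.3 FPKM in controls (SD, n = 4), and propionate 1 lay among the controls. For Atp5a1 edgeR's quasi-likelihood test gave a log2 difference of 0.14 ± 0.07 (SE) and a p of 0.677 adjusted over the full gene set. Atp5d, a subunit of the central stalk, had a log2 fold change of 0.22 with 3 propionate libraries above all controls.

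The mitochondrial ribosome translates the core subunits encoded in mitochondrial DNA. All 16 genes of its subunits in the table were higher (all but Mrpl2, Mrpl54 and Mrpl28 with the trend removed). Their median log2 fold change was 0.25, and 11 passed the looser rule, beside 90.2% of all rows. Mrpl52 had scaled counts of 684, 861, 858 and 878 in controls 1 to 4 and 889, 927, 1019 and 1065 in propionate 1 to 4. Mrpl52 was higher in every propionate library than in any control, and control 1 stood far below the other controls. With edgeR, Mrpl52 differed by 0.25 ± 0.09 (SE) on the log2 scale, adjusted p 0.374 over the full gene set. Scaled counts of Mrpl2 were 1150.2, 1264, 1334 and 1345 in controls 1 to 4 and 1325, 1511, 1445 and 1512 in propionate 1 to 4. In Mrpl2, a protein of the ribosome's large subunit related to a bacterial core protein, propionate 1 lay below control 3 and control 4. Mrpl2 had a log2 fold change of 0.19 ± 0.07 (SE), adjusted p 0.377 over the full gene set by edgeR. The fold change became -0.03 once the length and GC trend was taken out. Mrpl12 had scaled counts of 3509, 3693, 3663 and 3451 in controls 1 to 4 and 3617, 3751, 4142 and 4855 in propionate 1 to 4. Mrpl12, related to the stalk protein of the bacterial ribosome, had the highest level of the large subunit, 95.6 ± 3.14 FPKM in controls (SD, n = 4), and its propionate 1 overlapped the controls. For Mrpl12 edgeR's quasi-likelihood test gave a log2 difference of 0.19 ± 0.09 (SE) and a p of 0.491 adjusted over the full gene set. The other genes of the large subunit, Mrpl58, Mrpl46, Mrpl21, Mrpl14, Mrpl20, Mrpl54 and Mrpl28, had log2 fold changes from 0.21 for Mrpl58, a peptidyl-tRNA hydrolase, to 0.26 for Mrpl14 and Mrpl54.

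The 6 genes of the small subunit had a median log2 fold change of 0.28 (0.21 after the trend on length and GC was taken out). All 6 passed the looser rule, as did 90.2% of all rows. Scaled counts of Mrps25 were 529.6, 543, 544 and 611 in controls 1 to 4 and 621, 601, 735 and 853 in propionate 1 to 4. Mrps25 was above all controls in propionate 1, 3 and 4. With edgeR, Mrps25 differed by 0.34 ± 0.11 (SE) on the log2 scale, adjusted p 0.339 over the full gene set. The annotation places 4590 exonic bases of Nr2c2 opposite Mrps25, and without strand information the reads of such overlapping genes cannot be told apart. Scaled counts of Mrps6 were 839.9, 895, 930.5 and 1079 in controls 1 to 4 and 1036, 1118, 1045 and 1415 in propionate 1 to 4. For Mrps6, control 4 exceeded propionate 1 and propionate 3. Mrps6 had a log2 fold change of 0.30 ± 0.11 (SE), adjusted p 0.368 over the full gene set by edgeR. Of its coding bases, 49.3% are shared on the same strand with Gm49711 or Slc5a3. Mrps24 had scaled counts of 1025, 1101, 1189 and 1191 in controls 1 to 4 and 1145, 1342, 1310.1 and 1602 in propionate 1 to 4. Mrps24 had the highest level of the class, 31.4 ± 2.20 FPKM in controls (SD, n = 4), with propionate 2 to 4 above every control. For Mrps24 edgeR's quasi-likelihood test gave a log2 difference of 0.26 ± 0.10 (SE) and a p of 0.371 adjusted over the full gene set. Mrps23 and Mrps11 had groups that did not overlap, with log2 fold changes of 0.23 and 0.29, and Mrps16 had 0.25. Mrps11 and Mrpl46 are neighbours in opposite orientation that share 173 exonic bases, and their promoter windows overlap. Whether they share reads was not tested.

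Import into the matrix and inner membrane runs through the TIM23 and TIM22 translocases, served by small chaperones of the intermembrane space. All 5 genes in the table were higher, and all passed the looser rule, as did 90.2% of all rows. Timm44 had scaled counts of 979, 1105, 1052 and 976 in controls 1 to 4 and 1063, 1246, 1154 and 1311 in propionate 1 to 4. Timm44 anchors the import motor to the TIM23 channel, and propionate 2 to 4 exceeded every control. With edgeR, Timm44 differed by 0.22 ± 0.08 (SE) on the log2 scale, adjusted p 0.365 over the full gene set. Scaled counts of Timm17b were 549.7, 622, 587 and 577 in controls 1 to 4 and 636, 683, 632 and 754 in propionate 1 to 4. Timm17b, an X-linked channel subunit, had all 4 propionate libraries above the controls. Timm17b had a log2 fold change of 0.21 ± 0.08 (SE), adjusted p 0.368 over the full gene set by edgeR. Scaled counts of Timm13 were 1484, 1577, 1523 and 1704 in controls 1 to 4 and 1612, 1720.0, 2004 and 2481 in propionate 1 to 4. Timm13, a small chaperone, had the highest level of the class, 46.9 ± 3.17 FPKM in controls and 58.2 ± 11.4 with propionate (SD, n = 4), and only propionate 1 lay inside the control range. For Timm13 edgeR's quasi-likelihood test gave a log2 difference of 0.31 ± 0.12 (SE) and a p of 0.378 adjusted over the full gene set. Timm22, the channel for carrier proteins, and Timm9, another small chaperone, had log2 fold changes of 0.24 each.

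The 2 mitochondrially encoded genes in the table, of 13 annotated, ran the other way. Scaled counts of mt-Nd5 were 70358, 71615, 75674 and 81651 in controls 1 to 4 and 75917, 68319, 56031 and 56324 in propionate 1 to 4. For mt-Nd5, a proton-pumping core subunit of complex I, propionate 3 and 4 were far below every control, propionate 2 just below, and propionate 1 above 3 of the 4 controls. With edgeR, mt-Nd5 differed by -0.22 ± 0.10 (SE) on the log2 scale, adjusted p 0.06 over the rows tested, and the fold change became 0.06 with the length and GC trend removed. At 1678 ± 117 FPKM in controls and 1437 ± 219.8 with propionate (SD, n = 4) it had the highest level of all members. Scaled counts of mt-Nd4l were 1082, 561, 605 and 679 in controls 1 to 4 and 493, 495, 611 and 277 in propionate 1 to 4. Control 1 was far above all other libraries of mt-Nd4l and propionate 4 far below, while propionate 3 overlapped the controls. mt-Nd4l had a log2 fold change of -0.64 ± 0.25 (SE), adjusted p 0.0426 over the rows tested by edgeR. Without control 1 its log2 fold change was -0.39, with an edgeR p of 0.103 adjusted over the rows tested, and without control 1 and propionate 4 together -0.20. In the authors' deposited table the adjusted p was 0.215 for mt-Nd4l and 0.393 for mt-Nd5. Relative to mt-Nd5 in the same library, mt-Nd4l made 0.491% (propionate 4) to 1.54% (control 1) of the scaled count, so the pair did not move in parallel although both come from transcripts of the same mitochondrial DNA strand.

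Nuclear and mitochondrial encoding were compared by summing the scaled counts of each set in each library. The 48 nuclear genes summed to 159901, 181706, 172712 and 176453 in controls 1 to 4 and to 177404, 191909, 197411 and 233221 in propionate 1 to 4. Propionate 1 lay below control 2, and the other propionate libraries lay above all controls. The mt-Nd5 and mt-Nd4l sums were 71440.5, 72176, 76279 and 82330.4 in controls 1 to 4 and 76409.7, 68814, 56643 and 56600.4 in propionate 1 to 4. The ratio of the nuclear to the mitochondrial sum was 2.29 ± 0.160 in controls and 3.18 ± 0.789 with propionate (SD, n = 4). It reached 2.32, 2.79, 3.49 and 4.12 in propionate 1 to 4, against 2.14 to 2.52 in controls, so propionate 1 stayed inside the control range. No p is given for this ratio, since both sets were chosen from a table selected for differences, and mt-Nd5 makes up nearly all of the mitochondrial sum. The nuclear sum does not weigh its 48 genes evenly either. Atp5a1 has its largest counts, a mean of 47283 of 172693 in controls. The ribosomal RNAs of the mitochondrial genome, mt-Rnr1 and mt-Rnr2, which are no members, did not share the direction of mt-Nd5. Their summed scaled counts were 19561 ± 3411 in controls and 24462 ± 4084 with propionate (SD, n = 4), higher rather than lower, and the groups overlapped.

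**Figure D4:**
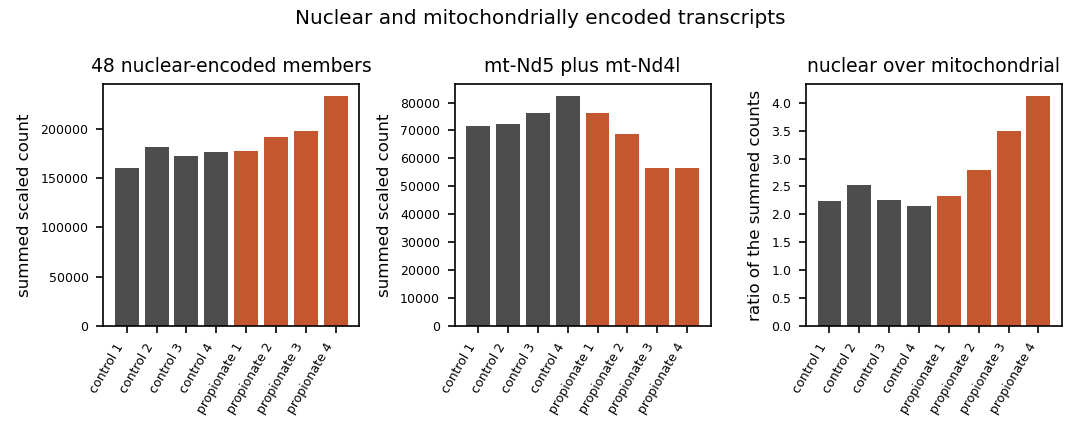
Summed scaled counts of the 48 nuclear members (left), of mt-Nd5 plus mt-Nd4l (middle) and their ratio (right) in each library, controls in grey and propionate in orange, all axes from 0. The ratio lies between 2.14 and 2.52 in controls and between 2.32 and 4.12 with propionate, highest in propionate 4.

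Other genes of mitochondrial biogenesis and upkeep were sparse in the table, and none passed the authors' adjusted p. Of 32 listed factors of mitochondrial translation and RNA processing 4 were in the table. Mterf4, Tufm and Hsd17b10 were higher and Pnpt1, a polynucleotide phosphorylase, was lower. Tufm, the mitochondrial elongation factor Tu, had 3090.0 ± 89.4 scaled counts in controls and 3555 ± 277 with propionate (SD, n = 4). Its groups did not overlap, as in 24.1% of all rows with propionate higher, and its log2 fold change was 0.20 ± 0.07 (SE). Mterf4, which takes part in ribosome assembly, had 0.35 ± 0.11. Of 12 listed regulators of mitochondrial biogenesis only Esrra was in the table, and the others were not analysed here. Esrra encodes ERR-alpha, the nuclear receptor whose motif was searched in the promoters. Esrra had scaled counts of 2547, 2575, 2556 and 2461 in controls 1 to 4 and 2602, 2933, 3088 and 3730.0 in propionate 1 to 4. All 4 propionate libraries exceeded every control, as in 24.1% of all rows and 49.7% of the rows outside the members that were higher. The log2 fold change of Esrra was 0.28 ± 0.10 (SE). The authors' deposited table gives Esrra an adjusted p of 0.202.

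Among the remaining lists, the genes in the table were all higher for chaperones and proteases (Htra2 and Lonp1 of 26 listed) and other assembly factors (Tmem126b of 26). So were those for cytochrome c, coenzyme Q and iron-sulphur clusters (Iba57, Lyrm4 and Coq7 of 28) and for carriers and cristae (Phb, Micos13, Chchd6 and Mpc2 of 28). These genes had log2 fold changes from 0.16 to 0.33. Tars2, 1 of 20 aminoacyl-tRNA synthetases, was at 0.21. Primpol, 1 of 14 genes of mitochondrial DNA replication and transcription, was at -0.39, and the uncoupling protein gene Ucp2, 1 of 11 genes of oxidative stress and uncoupling, at -0.28. None of 17 genes of the tricarboxylic acid cycle was analysed here.

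Cytosolic ribosomal protein genes, whose transcripts are also short and abundant, were also higher: 12 of 15 were in the table, all of them higher. Their median log2 fold change was 0.20. Their sums were 81061 to 87219 in controls and 90587 to 105947 with propionate, so the groups did not overlap. Of these, Rplp0 rose (0.0259 is its adjusted p in the authors' deposited table), from 7762 ± 183 to 8918 ± 376 scaled counts (SD, n = 4). Proximal tubule markers went in both directions: of 16 listed 9 were in the table, 6 higher and 3 lower. Slc13a3, a dicarboxylate transporter, fell (0.0215 is its adjusted p in the authors' deposited table), from 16430.0 ± 845 to 12956 ± 1532 (SD, n = 4). Summed over the 9 proximal tubule genes, scaled counts were 252766 to 289324 in controls and 261158 to 300195 with propionate. Markers of the thick ascending limb (2 of 6 in the table) went both ways, Egf lower at -0.28 and Kcnj1 higher at 0.18. Pvalb, 1 of 6 markers of the distal convoluted and connecting tubule, was higher. So were the 3 collecting duct markers in the table, of 9 listed. Of 11 listed macrophage and neutrophil markers the 2 in the table, Cd68 and Itgam, were lower. Their sums were 195 to 468 in controls and 114 to 294 with propionate. Of 10 immediate early and heat shock genes, which respond to tissue handling, 6 were in the table, and they split by kind. The immediate early genes Fos, Egr1 and Jun were all lower, with log2 fold changes of -1.12, -0.54 and -0.24. Fos was lower in every propionate library than in any control, as were 23.5% of all rows. Its scaled counts were 61.9 ± 16.2 in controls and 28.5 ± 11.4 with propionate (SD, n = 4). The heat shock genes Hspa1a, Dnajb1 and Hsph1 were all higher, at 0.65, 0.45 and 0.38. Summed over the 6 genes, of which Hsph1 has the largest counts, scaled counts were 3556 to 5181 in controls and 3987 to 5716 with propionate. No marker of podocytes, endothelium, fibroblasts, lymphocytes, erythroid cells, adipocytes or muscle was analysed here. The part of these cell types, of RNA quality and of propionate 4 in the differences of the members was not tested beyond the fits without single libraries.

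**Figure D5:**
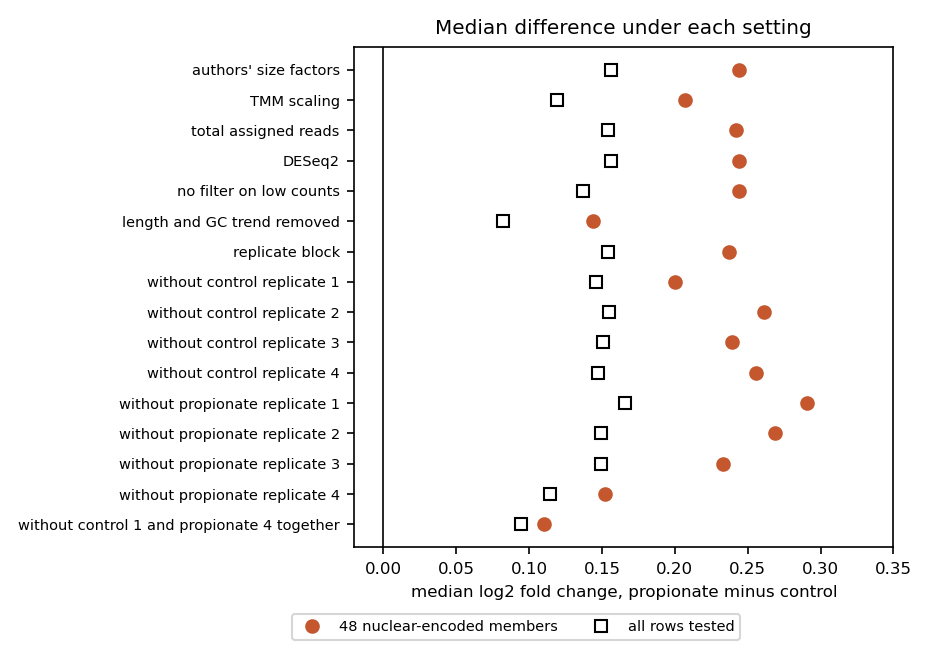
Median log2 fold change of the 48 nuclear genes (orange points) and of all rows tested (open squares) under each way of fitting the counts. The nuclear median stays above that of all rows in each setting plotted. It runs from 0.11 with control 1 and propionate 4 left out together, where the gap is smallest, to 0.29 without propionate 1. The median of all rows spans both directions, so a set with 47 of 48 genes higher lies above it largely by construction. With the authors' size factors the other rows that were higher had a median of 0.24, beside 0.25 for the 47.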

How the data were processed

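RNA-seq of 8 mouse kidneys, 4 per group, was analysed from 1 table; groups came from the treatment labels and columns from the sample identifiers. Per the file headers, the authors deposited raw counts, a scaled signal (counts over 1 size factor for each library), its group means, and FPKM. The deposited table also holds the authors' own log2 fold changes with p-values, raw and adjusted. The submitters' processing notes name DESeq2 and mm10, and the aligner, counter, library kit and strandedness are not stated in the sources used here. Of 1913 gene identifiers found in GENCODE M21 (GRCm38), 44 had the same start and end as in the table, so the build of the table's coordinates is unknown and none is printed.

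The deposited adjusted p-values follow from 16064 genes to a relative error of 0.00197. Size factors were recovered as counts over scaled counts, and library totals from counts, FPKM and gene length. The counts were fitted with edgeR 4.0.16 (quasi-likelihood, R 4.3.3) on all 1793 rows passing its expression filter, with the authors' size factors, because scaling within rows selected for a difference would be circular. Standard errors are the absolute log2 fold change divided by the square root of the F statistic. P-values were adjusted by Benjamini-Hochberg over 16064 genes, rows not listed being taken to have larger p-values, and, as a looser rule, over the rows tested. The fit was tested on simulated data. All 50 members passed the filter, the lowest count being 22 reads. Nothing says whether libraries came from separate cages or litters, and the p-values take the mice as independent. They come from rows selected for a difference on these same mice, so they do not measure the spread as an unselected table would.

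Alternatives were TMM scaling, total reads, DESeq2 1.42.0, no filter, a length and GC trend removed, a replicate block, each library left out, and, chosen after seeing the data, control 1 and propionate 4 left out together. TMM scaling and the length and GC trend were both fitted within the selected rows, so both share the circularity named above. Members with values in every library were those encoded in mitochondria, those with a deposited adjusted p up to 0.05, and in each class the 2 with the smallest edgeR p and the one with the highest FPKM. Members and gene lists were chosen with earlier results of these data known.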

Additional observations from a re-analysis of the deposited data

Results flagged for a closer look

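In 2 genes a control library stood apart from the other 3 controls. For Cox4i1, a nuclear-encoded subunit of cytochrome c oxidase, control 1 was the lowest library at 15086 scaled counts. The nearest control was at 17422, a gap of 0.928 of the whole range of the controls. For Mrpl52, a protein of the large mitochondrial ribosomal subunit, control 1 was the lowest at 684 and the nearest control at 858, a gap of 0.893 of the range. Each of the 50 genes was examined in both groups, 100 groups of 4 libraries in all, and chance alone would mark about 5, or 1 in 20.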

How the results depend on the processing

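The 47 higher members stayed 47 under TMM scaling, total reads, DESeq2, no filter, the replicate block and each library left out. That count could hardly change, since a deposited p of at most 0.05 was the condition for a gene to be listed. The share of higher genes among all rows tested was as steady. It was 53.3% with every library and 52.8% to 53.4% with 1 library left out. With the length and GC trend removed, 42 members were higher. Ndufs7, Ndufa11, Mrpl54 and Mrpl28 were then lower, Cox6a1 went to -0.0542, Mrpl2 to -0.027 and mt-Nd5 to 0.0641 on the log2 scale. The median of all members was 0.24, against 0.14 with the trend removed, 0.15 without propionate 4 and 0.11 without control 1 and propionate 4 together, a setting chosen after seeing the data. Adjusted over 16064 genes, members called numbered 0 in each setting except DESeq2, with 1 (Cox17). Adjusted over the rows tested, 36 members were called, against 19 with TMM, 14 with the trend removed, 27 with total reads, 48 with DESeq2 and 0 without control 1 and propionate 4 together. Leaving out 1 library gave 0 to 44. All rows called over the rows tested numbered 1617, against 1285 with TMM, 586 with the trend removed, 1500 with total reads and 1760 with DESeq2. They numbered 176 without control 1 and propionate 4 together and 30 to 1389 with 1 library left out. Over 16064 genes all rows called numbered 0, against 166 with DESeq2, 112 with the trend removed, 5 without propionate 2 and 3 with TMM. The share of higher genes among all rows called was 53.4%, against 39.8% with TMM and 72% with the trend removed. The cause of these shifts was not tested. Same-numbered libraries of the groups correlated at 0.247, 0.263, -0.0963 and 0.22 in their deviations from the group means, and not every library correlated best with its own number (control 1 did so with propionate 3, 0.375), so the numbers were not taken to pair them. A fit with the replicate block called 45 members and 1562 of all rows over the rows tested, and 0 of either over 16064 genes. Low counts limit Cox17, and 4 libraries per group limit every call.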
